A study of Mus musculus with 6 samples.

Results

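The expression of 10 genes was followed in Lewis cells, a mouse lung carcinoma line, after 24 hours with SD70, a small-molecule inhibitor of the histone demethylase KDM4C, or with its vehicle DMSO. They are Tsc22d3, its relatives Tsc22d1, Tsc22d2 and Tsc22d4, the glucocorticoid receptor gene Nr3c1, the receptor targets Fkbp5, Sgk1 and Klf9, and the transcription factor genes Foxo1 and Foxo3. They are 10 of the 16081 genes with a row in the expression tables, and they were picked by symbol with the difference between SD70 and DMSO already known. Their values in that comparison are therefore given as a description, and the number past a threshold is set beside that of all genes with nothing read from it. Each group held 3 RNA-seq samples of the same line, which carried no genetic change, and neither the labels nor the methods give an SD70 dose for this experiment. The methods say of all experiments that they were repeated independently, but neither source says whether these 3 RNA samples came from separate cultures. The tests below then measure the spread between these samples, which may be technical.

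Tsc22d3 encodes GILZ, the glucocorticoid-induced leucine zipper, a short protein that binds NF-kB and AP-1 subunits. It is a textbook target of both the glucocorticoid receptor, a steroid-activated nuclear receptor held in the cytoplasm by chaperones, and of the FOXO factors, which leave the nucleus when AKT or SGK kinases phosphorylate them. Glucocorticoids are known to raise one set of genes through receptor binding sites and to lower inflammatory genes in many cell types. The question was whether Tsc22d3 moved alone or together with other genes of these pathways.

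Between 15276744 and 17060424 counts were deposited per sample. Lewis cells showed Vim, a mesenchymal intermediate filament gene, at 44823 to 73431 counts and the epithelial keratin gene Krt8 at 2382 to 4150, while the epithelial markers Epcam, Cdh1, Krt19 and Sftpc had at most 1 count in a sample. Ptprc, which marks leukocytes, had 0 counts with DMSO and at most 2 with SD70, while the macrophage markers Cd68 and Lyz2 had 155 to 253 and 11 to 26 counts. Of the marker lists, the summed normalised counts were 3916 to 4106 with DMSO and 2572 to 2896 with SD70 for lung epithelium (6 of 9 genes listed), 74653 to 84090 and 57004 to 61443 for the mesenchymal state (4 of 4, most of it Vim, while Zeb1 went the other way, from 1532 to 1585 counts to 2151 to 2378), 249 to 258 and 176 to 206 for immune cells (4 of 6), 55.5 to 66.2 and 61.6 to 73.7 for endothelium (3 of 3), and 2740 to 2845 and 1722 to 1863 for fibroblasts (4 of 4). The endothelium counts were nearly all Cdh5 (56 to 65), with at most 4 for Pecam1 and 2 for Kdr in a sample. Those for fibroblasts were nearly all Pdgfra and Dcn, with at most 6 for Col1a1 and 11 for Col1a2. What part the shifts of these sums play in the results was not tested. In bulk RNA, more cells with a transcript and more transcript per cell cannot be told apart.

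Promoter sequence was available from RefSeq (GRCm38.p6) for 7 of the 10 genes, as 18 windows that run from 250 bases before to 50 bases after a transcription start. Nr3c1, Tsc22d2 and Tsc22d4 had no window, and sequence beyond the windows was not searched, so a window without a match does not mean a gene without a site. The windows were searched on both strands for the receptor palindrome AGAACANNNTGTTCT, for its half-site TGTTCT and for the FOXO motif GTAAACA. One match is shown for each gene that had any, and for Sgk1 the palindrome, because these are the letters that the 2 factor families are known to read. Capitals mark the matched motif, and each sequence is read 5′ to 3′ along the gene's strand with 7 bases on either side.
Tsc22d3, half-site: ttcgacaTGTTCTaagttct
Tsc22d1, half-site: cttgcacAGAACAcagcctc
Sgk1, palindrome: tgcggaaAGAACAGAATGTTCTcggagat
Klf9, FOXO motif: ggagaaaGTAAACAgagttga
The Tsc22d3 half-site (minus strand, chrX:140600695-140600714) began at -185 from the most distal of its 3 RefSeq starts, and the windows of the other starts had 0 matches. The Tsc22d1 half-site (plus strand, chr14:76504082-76504101) began at -137 from an internal start, within an intron of the long transcripts. The Sgk1 palindrome (plus strand, chr10:21993694-21993722) began at -189 from the start of a coding transcript, also within an intron of longer transcripts. The Klf9 site (plus strand, chr19:23141119-23141139) began at -100 from its single start, upstream of the first exon. The palindrome was found in 3 of 32851 windows of all genes (0.00913%), the half-site in 6233 (19.0%) and the FOXO motif in 1199 (3.65%). Among the 18 windows of the followed genes, 1 held the palindrome, 5 held a half-site (in Sgk1, Tsc22d1 and Tsc22d3) and 1 held the FOXO motif, and the palindrome itself contains 2 of the half-site matches. Sgk1 had further half-sites, at -242 from that start and, in other windows, at -195 and -13 from theirs. A match of letters is a description of the sequence and not a bound site.

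Tsc22d3 was the one followed gene that differed by more than 2-fold. The gene (NCBI Gene 14605) lies on the X chromosome of GRCm38.p6 from 140539528 to 140600522. Its counts were 527, 583 and 599 in DMSO samples 1, 2 and 3 and 2305, 2415 and 2334 in SD70 samples 1, 2 and 3. After normalisation to a common library size the means were 551 ± 33.0 and 2435 ± 119 (SD, n = 3 each). Every SD70 sample lay above every DMSO sample, and the gap between the groups was many times the spread within them. The log2 fold change (log2FC) was 2.14, with a standard error (SE) of 0.0608, or 4.41-fold. It ranked 60 among the 11552 genes tested, so that 0.511% of genes had a higher log2FC. The 5th to 95th percentile over all genes ran from -0.78 to 0.84, with a median of -0.0043.

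**Figure D1:**
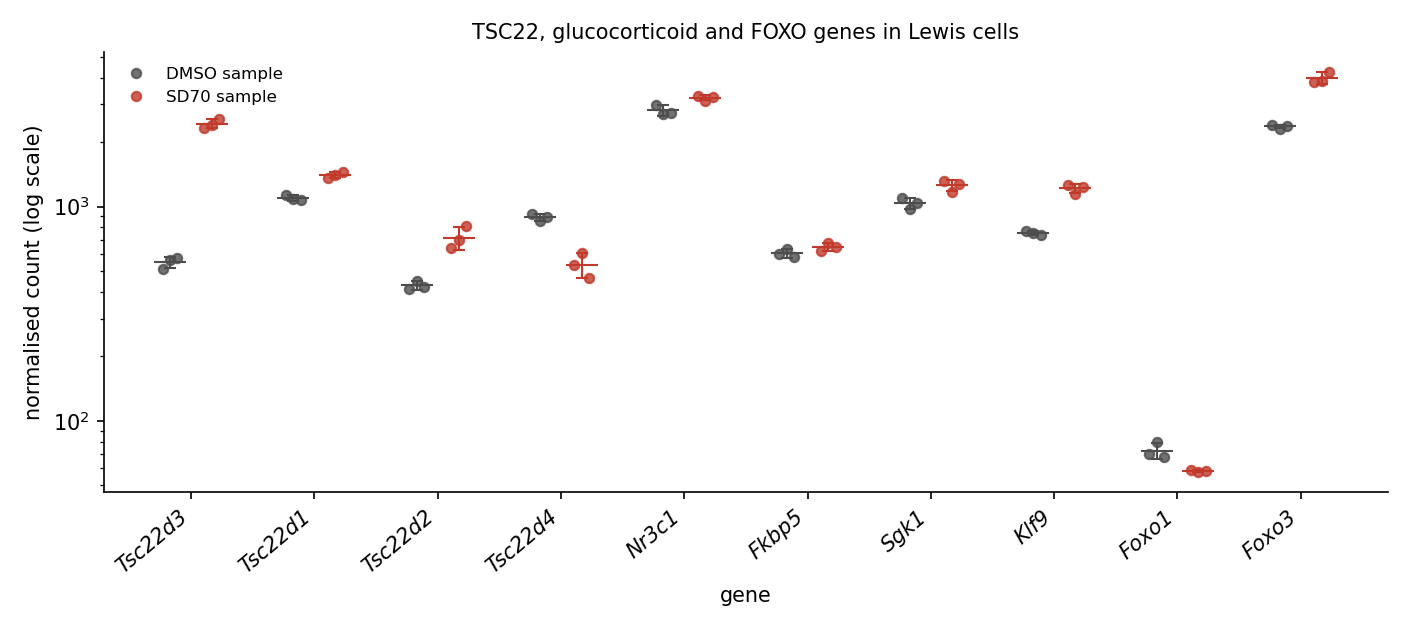
Normalised counts (log axis) of the 10 genes in each DMSO sample (grey) and SD70 sample (red); horizontal lines are group means and bars the SD (n = 3). Tsc22d3 goes from 551 to 2435, Tsc22d4 and Foxo1 are lower with SD70, and the Fkbp5 samples of the 2 groups overlap.

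The other TSC22 domain genes differed less and not all in one direction. They encode leucine zipper proteins that can pair with one another, and long forms of the family bind NRBP1 and WNK kinases. Tsc22d2 (NCBI Gene 72033, chromosome 3, 58414702 to 58466787) had 425, 465 and 438 counts in the DMSO group against 629, 704 and 741 in the SD70 group. Its normalised counts were 429 ± 20.1 and 718 ± 89.9 (SD, n = 3 each), a log2FC of 0.74 (SE 0.0785) with separate groups. Tsc22d4 (NCBI Gene 78829, chromosome 5, 137745969 to 137768453) had 950, 880 and 928 counts in the DMSO group against 525, 609 and 421 in the SD70 group. It was lower with SD70 in every sample, at 890 ± 35.5 against 534 ± 70.8 normalised counts (SD, n = 3 each) and a log2FC of -0.73 (SE 0.0737). Thus Tsc22d2 and Tsc22d4 stood about equally far from 0 on opposite sides, and both had their larger SD in the SD70 group.

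Tsc22d1 (NCBI Gene 21807, chromosome 14, 76414961 to 76507765), first described as a TGF-beta-stimulated gene, gave different answers on its count and on its FPKM. Counts of 1162, 1112 and 1120 were found in the DMSO group and of 1334, 1417 and 1325 in the SD70 group, a log2FC of 0.36 (SE 0.0561). Its FPKM values, which are counts per gene length and library size, were 24.1, 22.9 and 23.4 in the DMSO samples against 35.3, 37.2 and 37.8 in the SD70 samples, a log2 ratio of the means of 0.65. Both scales put all SD70 samples above all DMSO samples. The length that ties each count to its FPKM was 2870, 2897 and 2810 bases in the DMSO samples and 2281, 2261 and 2298 bases in the SD70 samples, so the groups did not overlap there either. The mean length with SD70 was 79.7% of that with DMSO. Of 10156 genes with an FPKM of at least 1 in every sample, 0.0394% had a lower percentage, and the 5th to 95th percentile ran from 96.7% to 101.2% around a median of 99.5%. The GENCODE M21 annotation has 10 coding Tsc22d1 transcripts of 398 to 4999 bases, among them long ones of 4999 and 4818 bases and a shorter one of 1762. Use of single transcripts was not measured, and the counts are for the whole gene. For Tsc22d3 the implied length was 99.6% of its DMSO value, for Tsc22d4 99.5% and for Tsc22d2 96.7%, where the samples of the groups overlapped (7827 to 8739 and 7811 to 8309 bases).

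**Figure D2:**
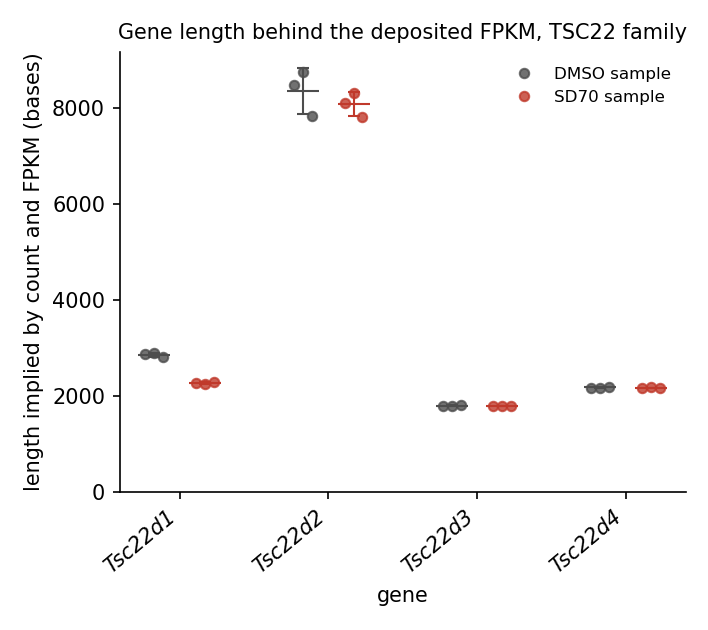
Length in bases implied by the deposited count, FPKM and library total for the TSC22 domain genes, per DMSO (grey) and SD70 (red) sample, with means and SD (n = 3). Tsc22d1 goes from 2859 to 2280 bases with no overlap, while Tsc22d3 and Tsc22d4 stay within 1% of their DMSO means.

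The receptor gene and its targets differed by far less than Tsc22d3. Nr3c1 (NCBI Gene 14815), which encodes the glucocorticoid receptor, had 3071, 2788 and 2864 counts in the DMSO group against 3246, 3143 and 2960 in the SD70 group. After normalisation it was 2816 ± 154 and 3224 ± 90.9 (SD, n = 3 each), a log2FC of 0.20 (SE 0.0513) with groups that did not overlap. Fkbp5 (NCBI Gene 14229, chromosome 17, 28398753 to 28486149), a co-chaperone that dampens the receptor and one of its most widely used reporter genes, had 616, 656 and 606 counts in the DMSO group against 610, 682 and 592 in the SD70 group. Its groups overlapped, at 606 ± 28.4 and 649 ± 29.2 normalised counts (SD, n = 3 each) and a log2FC of 0.10 (SE 0.0675).

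Sgk1 (NCBI Gene 20393, chromosome 10, 21882184 to 21999903), a serum- and glucocorticoid-regulated kinase that phosphorylates FOXO factors, had 1122, 1000 and 1083 counts in the DMSO group against 1297, 1182 and 1161 in the SD70 group. Its normalised counts were 1034 ± 61.2 and 1256 ± 73.6 (SD, n = 3 each), a log2FC of 0.28 (SE 0.0602) with separate groups. Sgk1, whose window holds the palindrome shown above, thus stood between Fkbp5 and Klf9 in size. Klf9 (NCBI Gene 16601, chromosome 19, 23141226 to 23168129), a zinc finger factor induced by glucocorticoids and thyroid hormone, had 793, 773 and 769 counts in the DMSO group against 1247, 1155 and 1125 in the SD70 group. It was 754 ± 17.8 and 1217 ± 62.0 after normalisation (SD, n = 3 each), the largest log2FC of these receptor targets at 0.69 (SE 0.0599).

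Foxo3 was higher with SD70, while Foxo1 was lower at few counts and did not pass the test given below. Foxo3 (NCBI Gene 56484, chromosome 10, 42181845 to 42276695) had 2466, 2382 and 2490 counts in the DMSO group against 3762, 3886 and 3880 in the SD70 group. Its normalised counts were 2368 ± 48.0 and 3982 ± 249 (SD, n = 3 each), a log2FC of 0.75 (SE 0.0520) with separate groups. Foxo1 (NCBI Gene 56458, chromosome 3, 52268337 to 52350109) was far less abundant, with 72, 82 and 71 counts in the DMSO group against 58, 58 and 53 in the SD70 group. It was 72.6 ± 6.16 and 58.3 ± 0.632 after normalisation (SD, n = 3 each), with every SD70 sample lower but a SE of 0.161 on a log2FC of -0.32. The counts of all 10 genes were whole numbers in every sample.

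**Figure D3:**
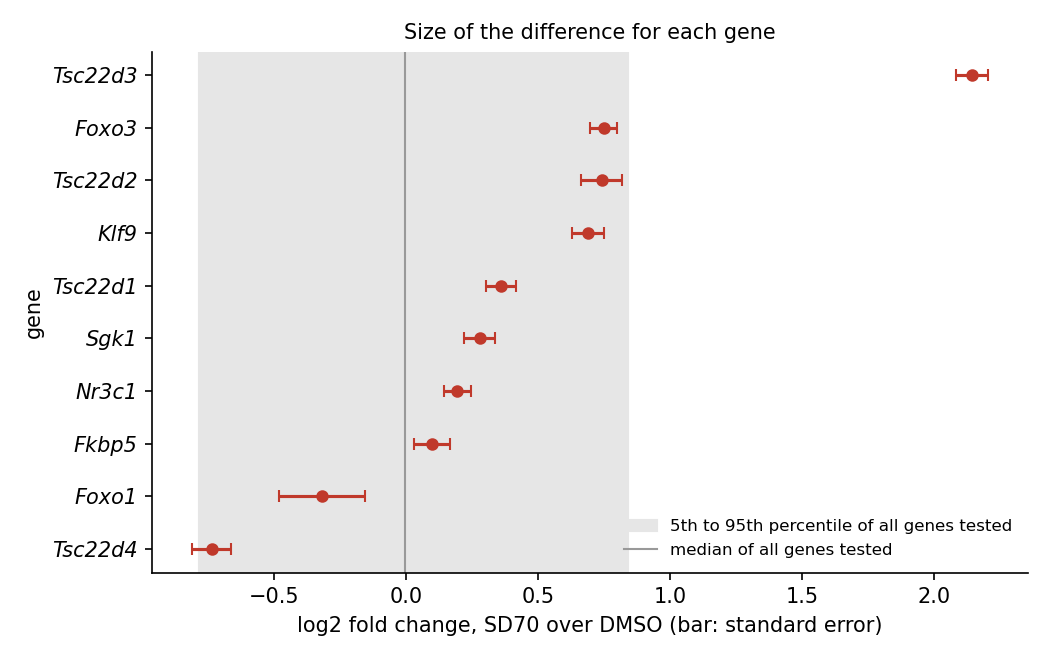
Log2 fold change of SD70 over DMSO for the 10 genes, with bars of 1 standard error; the grey band is the 5th to 95th percentile of all 11552 genes tested. Tsc22d3 at 2.14 lies outside the band, and the other 9 genes lie between -0.73 and 0.75, inside it.

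All 10 genes passed the filter on low counts. At an adjusted p-value under 0.01 from edgeR's quasi-likelihood test, 7 were higher and 1 was lower with SD70, beside 25.8% and 24.2% of all genes tested, and Fkbp5 and Foxo1 did not pass. With a minimum of 2-fold added, 1 was higher and 0 were lower, beside 3.29% and 2.61% of all genes, or 5.9% in either direction. The groups did not overlap in 7 genes that were higher and 2 that were lower, beside 32.8% and 31.6% of all genes. Since the genes were picked on this contrast, nothing is read from these counts. Their median log2FC was 0.32, against -0.0043 over all genes.

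Per gene length, the order of the 10 genes changed at the top. With DMSO the FPKM was highest for Nr3c1 (27.8 ± 1.48, SD, n = 3), followed by Sgk1 (27.5 ± 1.62), Tsc22d4 (25.0 ± 0.997) and Tsc22d1 (23.4 ± 0.609), and the samples of each of these overlapped those of the next. Foxo3 (21.7 ± 0.341), Tsc22d3 (18.7 ± 1.07), Klf9 (14.9 ± 0.395), Fkbp5 (9.98 ± 0.501), Tsc22d2 (3.14 ± 0.152) and Foxo1 (0.827 ± 0.0737) followed without overlap between neighbours. With SD70 Tsc22d3 came first at 80.8 ± 4.2 FPKM (SD, n = 3), clear of Tsc22d1 (36.7 ± 1.31). Tsc22d1, Foxo3 (35.6 ± 2.26), Sgk1 (32.6 ± 1.87) and Nr3c1 (31.0 ± 0.795) overlapped from neighbour to neighbour, ahead of Klf9 (23.5 ± 1.17), Tsc22d4 (14.6 ± 1.92), Fkbp5 (10.4 ± 0.486), Tsc22d2 (5.31 ± 0.802) and Foxo1 (0.647 ± 0.00577). Tsc22d3 thus went to the top of the order on this scale, and Tsc22d4 fell behind Klf9.

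Of other genes known to be raised by glucocorticoids, some rose, some fell and many did not pass the test. A list of 34 such genes had 30 in the tables and 25 with enough counts to be tested. This list and those below were written with earlier results of these data known, so their counts are given as a description. At an adjusted p-value under 0.01 from edgeR, 9 rose (36.0% of those tested), 6 fell (24.0%) and 10 did not pass, beside 25.8% and 24.2% of all genes. The median log2FC was -0.03. The largest rises were those of Rhob, a small GTPase (log2FC 1.23, SE 0.0520, adjusted p = 1.90e-20 from edgeR), Tnfaip3, an NF-kB brake (1.21, SE 0.0785, adjusted p = 8.90e-15), and Lcn2, an iron-siderophore binding protein (0.83, SE 0.0523, adjusted p = 1.15e-15). Tnfaip3 and Lcn2 are also known targets of NF-kB, so the list also holds genes of another pathway. Lpin1, a phosphatidate phosphatase, fell with -0.80 (SE 0.0634, adjusted p = 4.05e-13 from edgeR). Zbtb16, a transcription factor gene that responds to glucocorticoids in many tissues, had 30, 34 and 26 counts in the DMSO group against 13, 15 and 17 in the SD70 group. Its log2FC of -0.90 (SE 0.270) had an adjusted p of 0.0046 from edgeR, but of 0.0314 by DESeq2 and of 0.0128 to 0.0304 when DMSO replicate 1, DMSO replicate 2, SD70 replicate 1 or SD70 replicate 2 was left out. Per1 and Dusp1, 2 common reporter genes of the receptor that were picked here after their values were seen, did not pass, with log2FC values of -0.07 (SE 0.0795, adjusted p = 0.492 from edgeR) and -0.06 (SE 0.0819, adjusted p = 0.557). Ddit4 and Angptl4, picked in the same way, rose with 0.60 (SE 0.0631, adjusted p = 4.03e-10 from edgeR) and 0.70 (SE 0.175, adjusted p = 0.000899). Glul, also picked in this way, fell with -0.59 (SE 0.0661, adjusted p = 2.03e-09 from edgeR).

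Among the inflammatory genes that glucocorticoids are known to lower, many of them NF-kB targets, 13 of the 16 tested rose. The number that rose was 11 with a minimum of 10 counts in every sample, which leaves out genes that entered the test through 1 group. The list had 19 genes, and 1 of those tested fell, at an adjusted p-value under 0.01 from edgeR, which 25.8% of all genes passed as higher and 24.2% as lower. Of those that rose, 10 were at least 2-fold higher, beside 3.29% of all genes, and the median log2FC of those tested was 1.88. Both values include Icam1 and Il1a, which entered the test through their SD70 counts alone, and are given as a description. The list was also written with earlier results of these data known. Its counts and shares are therefore not independent of this contrast, and nothing is read from them. The growth factor gene Csf2 rose from 101 ± 4.34 to 2219 ± 201 normalised counts (log2FC 4.46, SE 0.0830, adjusted p = 1.58e-30 from edgeR). The adhesion molecule gene Icam1 was at 4.84 ± 0.928 and 69.0 ± 2.81 (log2FC 3.80, SE 0.279), with 4, 5 and 6 counts in the DMSO samples. Such a gene had to differ to be tested. The chemokine genes Cxcl5 (3.15, SE 0.172, adjusted p = 8.27e-16) and Cxcl2 (2.57, SE 0.0594, adjusted p = 5.54e-25) completed the 4 largest. The gene that fell was Il11, named here after its value was seen, with 68, 57 and 64 counts against 46, 32 and 40 (log2FC -0.58, adjusted p = 0.00837 from edgeR). The number that fell was 2 when the replicate number was blocked and 0 by DESeq2, and it was 2 without DMSO replicate 2 and 0 without DMSO replicate 3, SD70 replicate 2 or SD70 replicate 3.

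FOXO target genes moved in both directions. The list had 44 genes, 39 in the tables and 35 tested, of which 10 rose (28.6%), 20 fell (57.1%) and 5 did not pass at an adjusted p-value under 0.01 from edgeR, beside 25.8% and 24.2% of all genes. The median log2FC was -0.39. Sesn2, a leucine sensor upstream of mTORC1, rose from 526 ± 3.26 to 3336 ± 395 normalised counts (SD, n = 3 each), a log2FC of 2.66 (SE 0.0718, adjusted p = 1.75e-20 from edgeR). Gadd45a, a growth arrest and DNA damage gene, rose from 857 ± 51.3 to 5034 ± 492 (2.55, SE 0.0644, adjusted p = 2.44e-23). Both are known targets of ATF4 and p53 as well as of FOXO factors. Klf4, a zinc finger factor, rose at lower counts, 33, 27 and 33 against 103, 96 and 111 (1.83, SE 0.176, adjusted p = 5.69e-11), and Txnip, the thioredoxin inhibitor, had a log2FC of 1.3 (SE 0.0666, adjusted p = 1.10e-13).

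Among the FOXO targets that fell, Cdkn1a, the CDK inhibitor p21, went from 3248 ± 269 to 1238 ± 111 normalised counts (SD, n = 3 each), a log2FC of -1.39 (SE 0.0650, adjusted p = 1.03e-15 from edgeR). Sesn3 had 12, 14 and 13 counts in the DMSO group against 2, 5 and 3 in the SD70 group (-1.83, SE 0.462, adjusted p = 0.00093 from edgeR), and its adjusted p was 0.0123 by DESeq2 and 0.0113 without SD70 replicate 1. Sesn3 entered the test through its DMSO counts alone, so nothing is read from its p-values. It could not be tested with a minimum of 10 counts in every sample, where 19 FOXO targets fell in place of 20. Bcl6, Cited2, Sesn1 and Irs2, named because they are shared and not by the naming rule, stood on both the glucocorticoid-induced and the FOXO list, and of these 4 genes 1 rose (Cited2) and 1 fell (Sesn1), beside 25.8% and 24.2% of all genes.

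**Figure D4:**
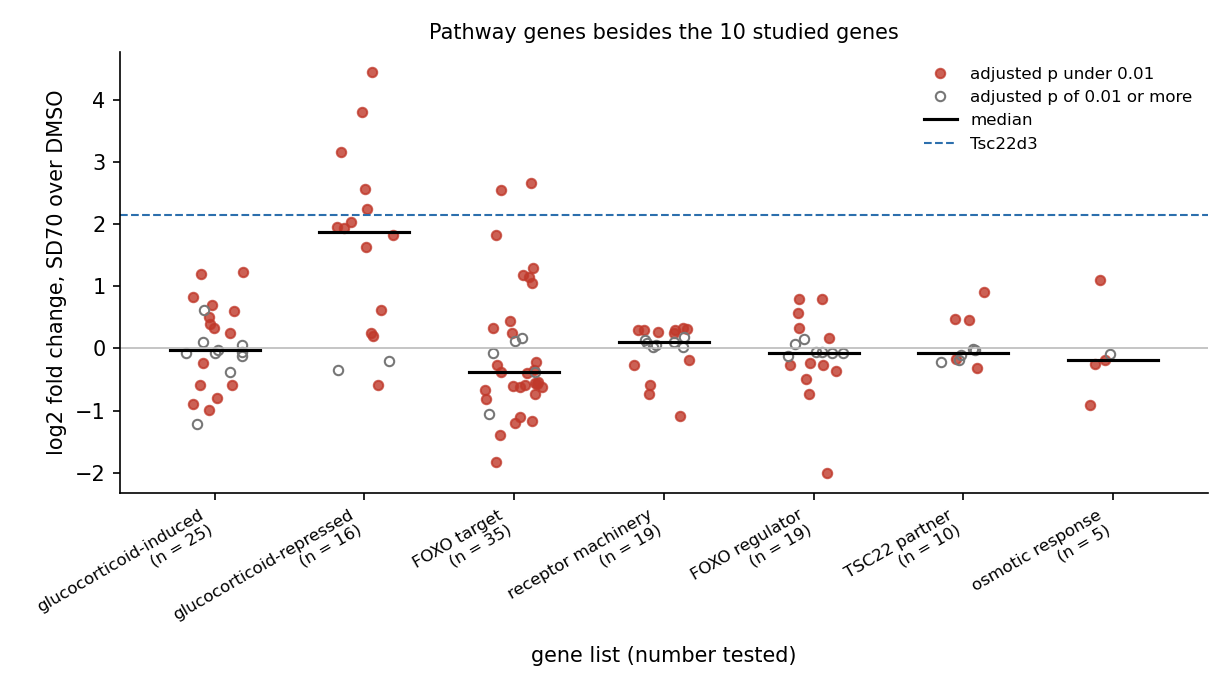
Log2 fold change of SD70 over DMSO for each tested gene of the 7 lists, filled where the adjusted p from edgeR was under 0.01; black lines are medians and the dashed line is Tsc22d3. The medians are -0.03 for glucocorticoid-induced, 1.88 for glucocorticoid-repressed and -0.39 for FOXO target genes, and every tested glucocorticoid-induced gene lies below Tsc22d3.

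The genes that serve the receptor and those that act on FOXO factors are given beside the same 25.8% of all genes that rose and 24.2% that fell. Of 21 chaperone, cofactor and hormone enzyme genes of the receptor, 19 were tested, with 7 that rose (36.8%), 5 that fell (26.3%) and 7 that did not pass, and the median log2FC was 0.11. The cochaperone gene Dnajb1 fell with -1.08 (SE 0.0604, adjusted p = 4.20e-17 from edgeR), Hspa8, the constitutive HSP70, with -0.73 (SE 0.0513, adjusted p = 1.99e-14), and Hexim1, an inhibitor of P-TEFb, with -0.59 (SE 0.0663, adjusted p = 2.31e-09). Ptges3, the HSP90 cochaperone p23, rose with 0.33 (SE 0.0492, adjusted p = 6.71e-07). Outside the naming rule, and picked after their values were seen, Hsd11b1 and Hsd11b2, the enzymes that activate and inactivate the hormone, had at most 3 counts and 1 count in a sample, and Nr3c2, the mineralocorticoid receptor gene, had 8 to 12.

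Of 21 FOXO genes, kinases and binding proteins, 20 were in the tables and 19 were tested, with 5 that rose (26.3%, beside 25.8% of all genes), 7 that fell (36.8%, beside 24.2%) and 7 that did not pass (median log2FC -0.07). Sgk2, a kinase related to Sgk1, had the largest difference, from 96.8 ± 8.10 to 24.0 ± 4.91 normalised counts (log2FC -2.0, SE 0.190, adjusted p = 4.39e-11 from edgeR), opposite to the direction of Sgk1. Foxo4 fell with -0.74 (SE 0.0714, adjusted p = 7.01e-11 from edgeR), which made Foxo3 the one FOXO gene of the 3 tested with higher values. Pik3r1, the regulatory subunit of PI3 kinase, and Ywhag, a 14-3-3 protein that holds FOXO factors in the cytoplasm, rose with log2FC values of 0.79 each (SEs 0.0621 and 0.0628, adjusted p = 3.60e-13 and 1.76e-10).

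Of 13 genes listed for proteins linked to TSC22 domain proteins or to the WNK kinase pathway, 10 were tested, with 3 that rose (30%, beside 25.8% of all genes), 2 that fell (20%, beside 24.2%) and 5 that did not pass (median log2FC -0.07). Among those that rose were the NF-kB subunit genes Nfkb1 (log2FC 0.91, SE 0.0528, adjusted p = 1.26e-16 from edgeR) and Rela (0.46, SE 0.0525, adjusted p = 2.95e-09). Jun, an AP-1 subunit, fell with -0.32 (SE 0.0529, adjusted p = 4.31e-06). The other that fell was Wnk1, named after its value was seen (-0.17, adjusted p = 0.00274), and the number that fell was 1 without DMSO replicate 1, DMSO replicate 2 or SD70 replicate 2. Of 6 osmotic response genes, 5 were tested, with 1 that rose and 3 that fell, beside 25.8% and 24.2% of all genes (median log2FC -0.18). The amino acid transporter gene Slc38a2 rose with 1.09 (SE 0.0516, adjusted p = 3.88e-19 from edgeR). The transporter genes Slc5a3 (-0.91, SE 0.0580, adjusted p = 1.52e-15) and Slc6a6 (-0.25, SE 0.0493, adjusted p = 4.79e-05) fell, as did the aldose reductase gene Akr1b3 (-0.18, SE 0.0502, adjusted p = 0.00256), whose adjusted p was 0.0103 to 0.0231 without DMSO replicate 2, DMSO replicate 3 or SD70 replicate 1.

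The genes whose pattern over the 6 samples was most like that of Tsc22d3 were Arid5a, Mrps2, Neurl3, Ccdc137 and Trib3. Likeness was the Pearson r of log2 normalised values among the 9623 genes with a mean of at least 100 normalised counts, with the followed genes left out. It was 0.9999, 0.9999, 0.9997, 0.9997 and 0.9996 in that order. The 6 points form 2 groups of 3 and share their libraries, so any gene with tight groups and a large gap scores high. The size of the difference was not alike. The log2FC was 2.81 for the RNA-binding protein gene Arid5a, 0.40 for the mitochondrial ribosomal protein gene Mrps2, 1.94 for the ubiquitin ligase gene Neurl3, 0.85 for Ccdc137 and 2.96 for the pseudokinase gene Trib3, whose protein binds AKT. Arid5a had 539, 621 and 623 normalised counts in the DMSO group against 3850, 4113 and 4513 in the SD70 group. Tsc22d3 had the same order of samples within each group, with 514, 566 and 574 and then 2339, 2398 and 2568.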

How the data were processed

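RNA was extracted from Lewis cells kept for 24 hours with DMSO or SD70 (n = 3 each), and libraries were sequenced on the BGISEQ-500 platform. According to the methods, clean reads were aligned to GRCm38.p6 with HISAT, whereas the submitters' processing notes name StringTie 1.3.3b and the build mm8. The counting tool was not given in the sources used here. The authors deposited for each gene an expected count, not normalised, and a second value whose unit the files do not name. It was read as FPKM because count and value together gave a length close to that of annotated transcripts, so the authors' FPKM values carry this assumption. Between 8.84% and 9.28% of counts in a sample were not whole. Totals were 15276744 to 17060424 per sample, and precision was limited by 3 samples per group and by counting error in genes with few counts.

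Counts were rounded, filtered by filterByExpr (11552 of 16081 genes kept), normalised by TMM (factors 0.984 to 1.016) and tested by edgeR 4.0.16 (glmQLFit robust, glmQLFTest, R 4.3.3), with Benjamini-Hochberg adjustment over all genes tested. Calls were made at an adjusted p under 0.01, alone or together with a 2-fold minimum (1 on the log2 scale). Normalised counts were scaled to the mean effective library size. The implied length was the count divided by FPKM and library total. The fit was first tested on simulated data. No pair of samples in a group agreed within sampling noise (chi-square per gene 2.12 to 4.97). The genes and lists were chosen with earlier results of these data known. The text names all 10 genes, the largest log2 fold changes with an adjusted p under 0.01 of each list (6 for the glucocorticoid-induced and FOXO target lists and 4 for the others), and the 5 genes most like Tsc22d3. Some genes that this rule takes are not reported here. Genes named outside this rule, other than cell type markers and genes shared by lists, are said to have been picked after their values were seen.

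The labels number the samples 1 to 3 in both groups and do not say that equal numbers were handled together. Deviations from the group means correlated at r = 0.186, 0.306 and 0.185 for equal numbers over 9623 genes, and at -0.226 to 0.0111 for unequal numbers. Deviations within a group cancel out, so these values are not independent of one another. The numbers were treated as a possible pairing. The reported SEs, p-values and calls come from the fit without pairing, and a fit with the replicate number as a block was an alternative. The other alternatives were DESeq2 size factors in edgeR, all genes with at least 1 count, at least 10 counts in every sample, the Wald test of DESeq2 1.42.0, limma 3.58.1 on log2(FPKM + 1) and log2(FPKM + 0.1), and leaving out each sample. Promoter windows came from RefSeq GRCm38.p6 and transcripts from GENCODE M21. Protein sequences were not used here.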

Additional observations from a re-analysis of the deposited data

How the results depend on the processing

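With 3 samples per group, a small difference such as that of Fkbp5 cannot be told from the spread by the test. Nor can one at few counts such as that of Foxo1, and other genes with few counts (Zbtb16, Sesn3) lay near the threshold. When the replicate number was blocked, the glucocorticoid-repressed genes that fell numbered 2 in place of 1, as they did with all genes of at least 1 count, while DESeq2 gave 0. Pairing by that number changed no other count of calls by over 1.5 times. It changed no call of the 37 genes that the naming rule takes besides the 10 followed genes, whose calls were not compared under pairing. On log2(FPKM + 1), a scale that shrinks the differences of low values, limma called 283 of all genes, 202 higher and 81 lower, in place of 681. On that scale the log2 differences were 2.05 for Tsc22d3, 0.63 for Tsc22d1, 0.60 for Tsc22d2, 0.62 for Klf9 and -0.15 for Foxo1, and on log2(FPKM + 0.1) it was 0.65 for Tsc22d1. The direction of all 10 genes was kept in all 13 alternatives. In the fits that left out 1 sample, the glucocorticoid-repressed genes that fell ranged from 0 to 2 and the TSC22 partner genes that fell from 1 to 2. Of 479 values of the 37 other genes that the naming rule takes under the alternatives, 467 kept their direction and their side of the threshold, 12 kept their direction and lost the call (Zbtb16, Sesn3 and Akr1b3, as given with each), and 0 reversed. The cause of these shifts was not tested. The values of some of these genes moved by over 1.5 times on log2(FPKM + 1), to 1.28 for Icam1, 0.97 for Klf4, -1.13 for Sgk2, -0.33 for Sesn3 and -0.12 for Zbtb16, which was at -0.51 on log2(FPKM + 0.1). The adjusted p of Zbtb16 was 0.152 and 0.0822 on the 2 scales. Fkbp5 was at 0.06 on both scales and without DMSO replicate 3. No scaling moved the median of all genes by over 0.1 on the log2 scale.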
